A study of Mus musculus with 59 samples.

Results

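The 9 genes described here were higher, in embryoid bodies (EBs), with both of 2 defects of Polycomb repressive complex 1 (PRC1): loss of PCGF1, and point mutations of its catalytic subunits RING1A and RING1B. They are *Tgfb1*, *Pdgfa*, *Adamts8*, *Tradd*, *Ptrf*, *Fbxo2*, *Mgat4b*, *Mapt* and *2510009E07Rik*. They were chosen by these measured EB levels from Group 1, the study's list of 164 genes at which RING1B binding increased from ESCs to EBs. Of these, 160 had a matching symbol in the files and 152 could be fitted in both lines. The rule asked for an adjusted *p* under 0.05 and a higher level in *Pcgf1*-KO EBs, which 18 Group 1 genes met, and the same in point mutant EBs, which 28 met. The 9 genes met both conditions, out of 24391 genes in the files. The measurements were RNA-seq levels in TPM (transcript abundance scaled for transcript length and to a fixed sum per library) in 59 libraries from 6 lines of mouse embryonic stem cells (ESCs). The values in EBs of these 2 lines chose the genes and are given below as a description. The question asked of the other libraries was whether the same genes were also higher in ESCs with either defect, and in the lines that lack other PRC1 subunits.

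All lines carry *ERT2-Cre*, a Cre recombinase that acts in the nucleus after 4-hydroxytamoxifen (4-OHT) is added, and controls are the same cells without 4-OHT. In the *Pcgf1* line (19 libraries) 4-OHT turns *Pcgf1f/f* into *Pcgf1delta/delta*, called *Pcgf1*-KO here. In the point mutant line (8 libraries) it gives *Ring1apm/pm;Ring1bpm/pm* cells, so its controls already carry mutated *Ring1a* and differ from the treated cells in *Ring1b*. The other 4 lines have 8 libraries each and are *Ring1a-/-;Ring1bf/f*, in which the controls also lack *Ring1a*, *Pcgf2f/f;Pcgf4f/f*, *Pcgf3f/f;Pcgf5f/f* and *Pcgf6f/f*. The ESCs grew on fibroblast feeder cells with LIF and the inhibitors SU5402, PD184352 and CHIR99021, and EBs were the same cells after 2 days in low attachment dishes without these 4 additions. The lines other than the point mutant line were derived from blastocysts, the number of clones a line stands for is not given in the sources used here, and nothing says that the libraries of a group came from separate cultures, so *p*-values measure only the spread between libraries.

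PRC1 is a ubiquitin ligase that marks histone H2A at the genes it binds, and its RING1 subunit carries the catalytic activity. Its PCGF subunit defines the form of the complex, and the PCGF1 form is brought to unmethylated CpG islands by KDM2B, which binds CG dinucleotides. In ESCs such complexes hold many developmental genes at a low level.

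The 9 genes have unlike products. *Tgfb1* encodes a secreted, latent growth factor that signals through SMAD proteins, and *Pdgfa* encodes a ligand of the PDGF receptor alpha. *Adamts8* encodes a secreted metalloprotease. *Tradd* encodes the death domain adaptor of TNF receptor 1, and *Ptrf* (also *Cavin1*) a coat protein of caveolae. *Fbxo2* encodes an F-box protein that recognises sugar chains on misfolded glycoproteins, *Mgat4b* an enzyme that branches N-glycans, and *Mapt* the microtubule-binding protein tau. No role is given here for *2510009E07Rik*.

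Starts of 5 of the 9 genes matched an entry in the RefSeq promoter windows (build GRCm38.p6, 250 bases before to 50 after a gene's start). They are *Tgfb1*, *Pdgfa*, *Ptrf*, *Fbxo2* and *2510009E07Rik*, with 7 windows in all. CG dinucleotides, which read the same on both strands and cannot overlap each other, were counted in each window. The windows of the genes held 17 to 37 of them, against a median of 7 over 32851 windows, of which 94.6% held at least 1. By the highest count per gene, the 101 other Group 1 genes with a window had a median of 27, and all 27025 genes with a window a median of 8. The windows of 3 genes are shown, those of a ligand with many CG (*Tgfb1*), of the gene with the highest count (*Pdgfa*, the farther upstream of its windows) and of the gene with the largest change in *Pcgf1*-KO ESCs (*Fbxo2*), with CG in capitals.
*Tgfb1* (chr7:25686752-25687051, plus strand): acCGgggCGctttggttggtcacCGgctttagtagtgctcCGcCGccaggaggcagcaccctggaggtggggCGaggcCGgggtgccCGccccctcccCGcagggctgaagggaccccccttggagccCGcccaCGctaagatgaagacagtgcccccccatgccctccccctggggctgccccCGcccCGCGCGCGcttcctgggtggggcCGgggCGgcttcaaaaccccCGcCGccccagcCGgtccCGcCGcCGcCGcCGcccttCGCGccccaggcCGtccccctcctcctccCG
*Pdgfa* (chr5:138994895-138995194, minus strand): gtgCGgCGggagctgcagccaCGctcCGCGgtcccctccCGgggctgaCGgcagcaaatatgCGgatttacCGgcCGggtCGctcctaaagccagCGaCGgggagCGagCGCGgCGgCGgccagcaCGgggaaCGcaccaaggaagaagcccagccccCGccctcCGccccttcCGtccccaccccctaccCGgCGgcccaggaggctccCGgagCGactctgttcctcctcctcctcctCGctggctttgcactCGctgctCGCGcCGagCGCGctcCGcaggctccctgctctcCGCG
*Fbxo2* (chr4:148160418-148160717, plus strand): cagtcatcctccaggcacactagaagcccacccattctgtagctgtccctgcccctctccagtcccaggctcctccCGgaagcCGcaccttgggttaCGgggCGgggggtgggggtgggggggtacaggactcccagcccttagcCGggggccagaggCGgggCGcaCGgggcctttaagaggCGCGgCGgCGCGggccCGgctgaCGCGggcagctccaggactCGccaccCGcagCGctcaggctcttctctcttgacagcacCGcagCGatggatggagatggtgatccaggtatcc
The *Tgfb1* window held 30 CG, a count reached by 11.7% of all windows. The *Pdgfa* window held 37, reached by 5.58%, and the *Fbxo2* window 21, reached by 24.8%. No binding data were analysed here, so these counts describe the windows alone.

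In the build of the files (mm9, with GENCODE vM1 gene models), 3 of the genes lie on chromosome 11. These are *Mgat4b* (chr11:50024392-50048605), *Ptrf* (chr11:100818047-100832201) and *Mapt* (chr11:104092704-104193404). The others are *Fbxo2* (chr4:147534730-147540533), *Pdgfa* (chr5:139451968-139473324), *Tgfb1* (chr7:26472021-26490096), *Tradd* (chr8:107782186-107788509), *Adamts8* (chr9:30750147-30771423) and *2510009E07Rik* (chr16:21649118-21694738). A divergent start, that is, a neighbour on the other strand that starts within 1 kb and is read away from the gene, was found for 3 of the 9 (33.3%). Among 136 Group 1 genes placed by these models, the 9 included, 5 had one (3.68%), and among 20641 genes of the files 7.49% did. The 5 are these 3 genes and *Fbxo44* and *Fbxl8*, which are themselves the neighbours of *Fbxo2* and *Tradd*. *Fbxo2* starts 139 bp from *Fbxo44*, *Tradd* 39 bp from *Fbxl8* and *Mgat4b* 63 bp from *Sqstm1*. Levels of *Fbxo44* and *Fbxl8* are given further on.

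*Pcgf1* itself lay between 10.7 and 13.6 TPM in control ESCs and between 0.634 and 2.77 TPM in *Pcgf1*-KO ESCs, and in EBs between 7.30 and 16.6 TPM against 0.977 to 2.47 TPM. In the point mutant line the level of *Rnf2*, which encodes RING1B, checks nothing, since the mutation leaves the transcript. The stage labels of both lines matched the markers: *Fgf5*, a marker of the formative epiblast, was at most 0.703 TPM in every ESC library and at least 2.91 TPM in every EB library of these lines. In the other 4 lines 14 of 32 libraries went against their labelled stage by the same marker, at a limit of 1 TPM, which is taken up with those lines. Read depth is unknown, since the files hold TPM alone.

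In EBs, all 9 genes were higher with both defects, as the rule required. Of the 9, 7 had *Pcgf1*-KO EBs wholly above control EBs, as had 1.43% of all genes, and 9 had point mutant EBs wholly above their controls, as had 30.1%. *Tgfb1* measured 3.17, 2.77, 1.62, 1.70 and 1.38 TPM in the control EBs of the *Pcgf1* line and 6.61, 10.4, 5.68, 9.0 and 10.1 TPM in *Pcgf1*-KO EBs. In the other line it measured 8.92 and 4.00 TPM without 4-OHT and 37.5 and 35.6 TPM with it. The groups did not overlap in either line, and this ligand had the largest log2 difference of the 9 in both, 1.96 and 2.59 on the log2(TPM + 0.1) scale used throughout. Over all genes 1.08% were higher in *Pcgf1*-KO EBs by the rule's threshold and 3.76% in point mutant EBs.

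*Pdgfa*, which had the highest mean TPM of the 9 in each ESC group of the 2 lines, measured 8.52, 13.7, 7.26, 20.2 and 15.9 TPM in control EBs and 44.0, 17.1, 17.8, 65.1 and 58.2 TPM in *Pcgf1*-KO EBs. Replicates 2 and 3 of the *Pcgf1*-KO EBs lay within the range of the controls, so the groups overlapped. In point mutant EBs *Pdgfa* went from 19.9 and 20.2 TPM to 82.0 and 61.7 TPM, without overlap. *Adamts8* stayed between 0.0655 and 0.319 TPM in control EBs and lay between 0.524 and 1.35 TPM in *Pcgf1*-KO EBs, so a protease gene near the bottom of the measured range is among the 9. Its 2 control EBs of the point mutant line were at 1.05 and 1.08 TPM and the treated EBs at 4.91 and 5.52 TPM.

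The adaptor gene *Tradd* measured 4.79, 3.35, 2.05, 6.70 and 4.29 TPM in control EBs and 12.5, 9.63, 14.8, 18.1 and 15.6 TPM in *Pcgf1*-KO EBs. In point mutant EBs it went from 5.26 and 6.98 TPM to 14.5 and 16.3 TPM. *Ptrf*, the caveola gene, had 5.30 to 9.52 TPM in control EBs, against 13.7 to 25.7 TPM in *Pcgf1*-KO EBs. Its point mutant values were the tightest of all, with 8.5 and 8.55 TPM in control and 25.3 and 25.1 TPM in treated EBs. Neither gene's groups overlapped in either line.

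Both genes that act on sugar chains were at 5.21 TPM or more in all EBs of the 2 lines. *Fbxo2* measured 5.21 to 9.40 TPM in control and 13.7 to 24.8 TPM in *Pcgf1*-KO EBs, and 23.3 and 27 TPM against 75.7 and 52.5 TPM in the point mutant line. *Mgat4b* measured 17.7 to 23.9 TPM against 27.8 to 41.9 TPM, and 17.3 and 28.6 TPM against 44.4 and 53.4 TPM. With log2 differences of 0.80 and 1.13, *Mgat4b* had the smallest change of the 9 in either line.

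*Mapt* and *2510009E07Rik* were the genes that control EBs expressed least relative to ESCs. *Mapt* measured 0.804, 1.83, 1.37, 2.61 and 2.49 TPM in control EBs and 3.65, 2.81, 2.65, 11 and 10.7 TPM in *Pcgf1*-KO EBs, where replicates 4 and 5 stood well above the other 3. *Mapt* in the point mutant line was at 1.10 and 0.968 TPM in control and 3.65 and 4.15 TPM in treated EBs. *2510009E07Rik* was listed at 0 in replicates 2 and 3 of the control EBs and reached 0.118 TPM in the others, and it spanned 0.0861 to 0.608 TPM in *Pcgf1*-KO EBs, with overlap. It went from 0.235 and 0.540 TPM to 1.86 and 3.77 TPM in the point mutant line.

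**Figure D1:**
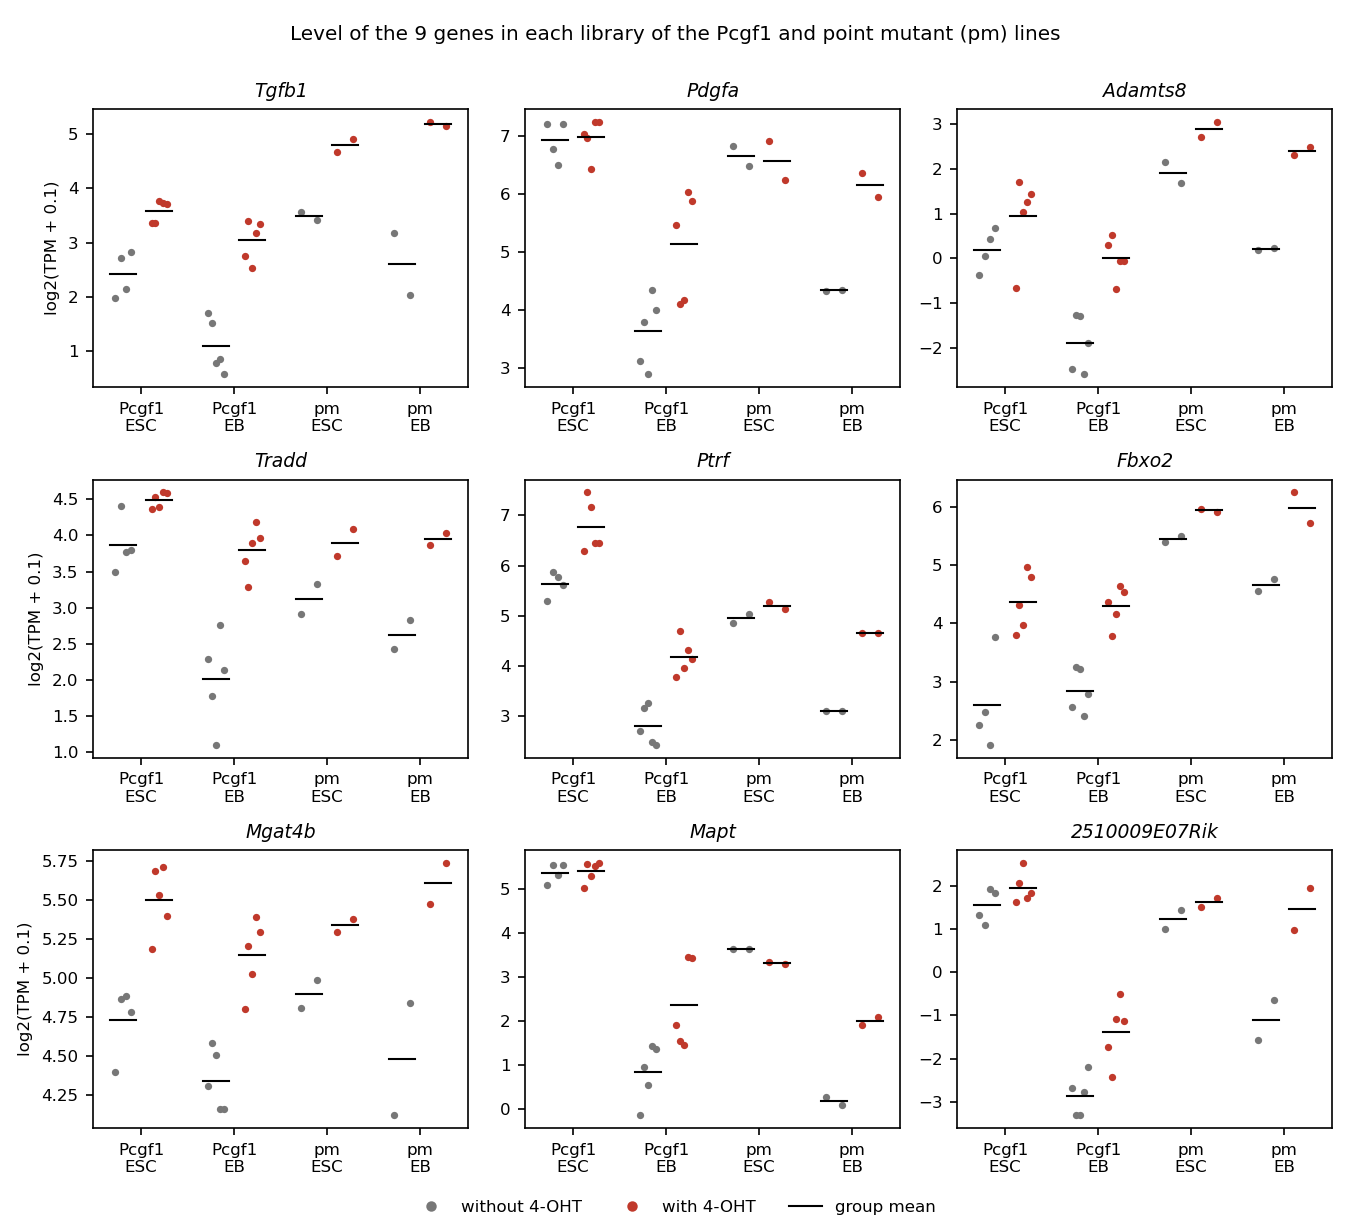
Level of each of the 9 genes, as log2(TPM + 0.1), in every library of the *Pcgf1* and point mutant (pm) lines. Each point is a library without (grey) or with (red) 4-OHT, the black bar is the group mean, and each panel has its own axis. In EBs the red points lie above the grey ones in all panels except *Pdgfa* and *2510009E07Rik* of the *Pcgf1* line, where they overlap. In ESCs of the *Pcgf1* line the grey and red points overlap for *Tradd*, *Adamts8*, *2510009E07Rik*, *Pdgfa* and *Mapt*.

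The values nearest to the rule's threshold show how the list was bounded. By the higher of their 2 adjusted *p* values, the genes just inside were *Tradd* (0.0358), *Pdgfa* (0.0385), *2510009E07Rik* (0.0449), *Mgat4b* (0.0463) and *Mapt* (0.0474). The Group 1 genes just outside, with higher levels in both lines, were *Chst8* (0.0509), *6030419C18Rik* (0.0624), *Ngfr* (0.0630), *Zc3hav1* (0.0633) and *Tbx3* (0.0668). The log2 differences of these 5 were between 1.24 and 1.97 in *Pcgf1*-KO EBs and between 1.01 and 2.65 in point mutant EBs.

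Several sets of markers moved with the defect in EBs and are given beside these values. The summed level of 9 markers of naive ESCs, all detected in the files, lay between 188 and 449 TPM in control EBs and 323 and 950.5 TPM in *Pcgf1*-KO EBs. Its values in the point mutant line were 716 and 809 TPM against 1186 and 1226 TPM. The 7 formative markers summed to 1138 to 3128 TPM against 374 to 1871 TPM in the *Pcgf1* line, and to 529 and 794 TPM against 179 and 192 TPM in the point mutant line. The 4 primitive endoderm markers summed to 1.76 to 4.00 TPM against 5.70 to 16.6 TPM, and to 7.18 and 9.31 TPM against 27.8 and 28.6 TPM. The 15 fibroblast markers summed to 35.8 to 79.6 TPM against 18.5 to 41.9 TPM in the *Pcgf1* line, where up to 5 of them were at 0 in a library. The same sum in the point mutant line was higher in treated EBs, at 76.5 TPM in both libraries against 34.3 and 37.3 TPM, and up to 2 of the 15 were at 0. In bulk RNA, more cells of a type and more RNA per cell cannot be told apart, and the part of these cell states in the levels of the 9 genes was not tested.

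The differences in ESCs with the same defects were not used to choose the genes and give a test of them. The test is not wholly separate from the choice. In both lines the rule's adjusted *p* values rest on a spread shared by the ESC and EB libraries, so the ESC spread entered the choice. In *Pcgf1*-KO ESCs all 9 log2 fold changes were above 0, as were those of 9656 of 20594 genes and 91 of the 144 other Group 1 genes. Of the 9, 2 genes, *Fbxo2* and *Mgat4b*, rose past an adjusted *p* of 0.05, against 0.32% of all 20594 genes fitted that rose. The same share fell. The spread in this fit is shared with the EB libraries that chose the genes, and with the ESC libraries alone neither gene passed (adjusted *p* 0.107 for *Fbxo2* and 0.0810 for *Mgat4b*, limma). Another 2, *Ptrf* and *Tgfb1*, came close to the threshold, and *Pdgfa* and *Mapt* had differences near 0. The median over the 9 was 0.76, over the 144 other Group 1 genes fitted 0.14, and over all genes -0.02.

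*Fbxo2* measured 4.71, 5.50, 3.68 and 13.5 TPM in control ESCs (replicates 1 to 4) and 13.8, 19.9, 15.5, 31.2 and 27.6 TPM in *Pcgf1*-KO ESCs (replicates 1 to 5). Every *Pcgf1*-KO library lay above every control, narrowly so for replicate 1 against control replicate 4. The log2 fold change was 1.76 with a standard error (SE) of 0.33 and an adjusted *p* of 0.0230 (limma, Benjamini-Hochberg).

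*Mgat4b* measured 21, 29, 29.5 and 27.4 TPM in control and 36.3, 51.4, 46.3, 52.3 and 42.1 TPM in *Pcgf1*-KO ESCs. Its groups were well apart, and it changed by 0.77 (SE 0.16, adjusted *p* 0.0290). *Ptrf* measured 39.1, 58.9, 54.5 and 49.1 TPM in control and 78.2, 176, 143, 86.8 and 87.5 TPM in *Pcgf1*-KO ESCs. Again no library of 1 group reached the other, and the log2 fold change was 1.12 (SE 0.25, adjusted *p* 0.0520). *Tgfb1* measured 3.84, 6.49, 4.34 and 7.01 TPM against 10.2, 10.2, 13.6, 13.2 and 13 TPM, also apart, with a log2 fold change of 1.17 (SE 0.28, adjusted *p* 0.0616). So 4 of the 9 had groups that did not overlap, with *Pcgf1*-KO higher, as had 2.1% of all genes.

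The other 5 overlapped. *Tradd* spanned 11.1 to 21.1 TPM in control and 20.5 to 24.1 TPM in *Pcgf1*-KO ESCs, with control replicate 2 inside the latter range (log2 fold change 0.63, SE 0.27, adjusted *p* 0.504). *Adamts8* spanned 0.677 to 1.5 TPM against 0.536 to 3.18 TPM, where replicate 1 of the *Pcgf1*-KO ESCs was the lowest of all 9 libraries (0.76, SE 0.46, adjusted *p* 0.738). *2510009E07Rik* spanned 2.06 to 3.74 TPM against 3.01 to 5.73 TPM (0.41, SE 0.39, adjusted *p* 0.897).

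For *Pdgfa* and *Mapt* the ranges of the 2 ESC groups overlapped almost wholly. *Pdgfa* measured 147, 109.6, 90.6 and 147 TPM in control ESCs and 131, 124, 86.4, 150.3 and 151 TPM in *Pcgf1*-KO ESCs, and its log2 fold change was 0.06, with a 95% interval from -0.75 to 0.87. *Mapt* measured 34.0, 47.0, 39.9 and 46.9 TPM against 32.7, 47.4, 39.5, 46.1 and 48.6 TPM, and changed by 0.03 (95% interval -0.83 to 0.88). These intervals reach changes of the size seen for *Mgat4b*.

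Same-numbered libraries of the *Pcgf1* line deviated together, and in a fit that blocks on that number 4 of the 9 passed the threshold in ESCs: *Fbxo2*, *Mgat4b*, *Ptrf* and *Tgfb1*, with adjusted *p* values of 0.00530, 0.00164, 0.00112 and 0.0194. The identifiers in the file headers fall into 3 series, which hold replicate 1, replicates 2 and 3, and replicates 4 and 5. Within these series the log2 differences of *Fbxo2* were 1.53, 1.94 and 1.12, those of *Mgat4b* 0.79, 0.74 and 0.78, those of *Ptrf* 1.00, 1.48 and 0.83, and those of *Tgfb1* 1.39, 1.13 and 0.89, so each was above 0 in every series. The count of 2 depended on which libraries were in the fit: without any 1 of *Pcgf1*-KO replicates 4 and 5 and control replicates 1, 2 and 3 it was 0, without *Pcgf1*-KO replicate 2 or 3 it was 1, and without *Pcgf1*-KO replicate 1 or control replicate 4 it was 3. The fibroblast markers summed to 288 to 329 TPM in control ESCs, against 241 to 276 TPM in *Pcgf1*-KO ESCs, with up to 4 of the 15 at 0, while over the single markers 8 of the 15 had a log2 fold change above 0, with a median of 0.02 and none past the threshold, and *Col1a1*, a collagen gene among them, lay between 126 and 218 TPM against 95.4 and 179 TPM. The naive marker sums overlapped (2371 to 4088 TPM against 2239 to 4427 TPM). The part of the feeder cells in the levels of the 9 genes was not tested.

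**Figure D2:**
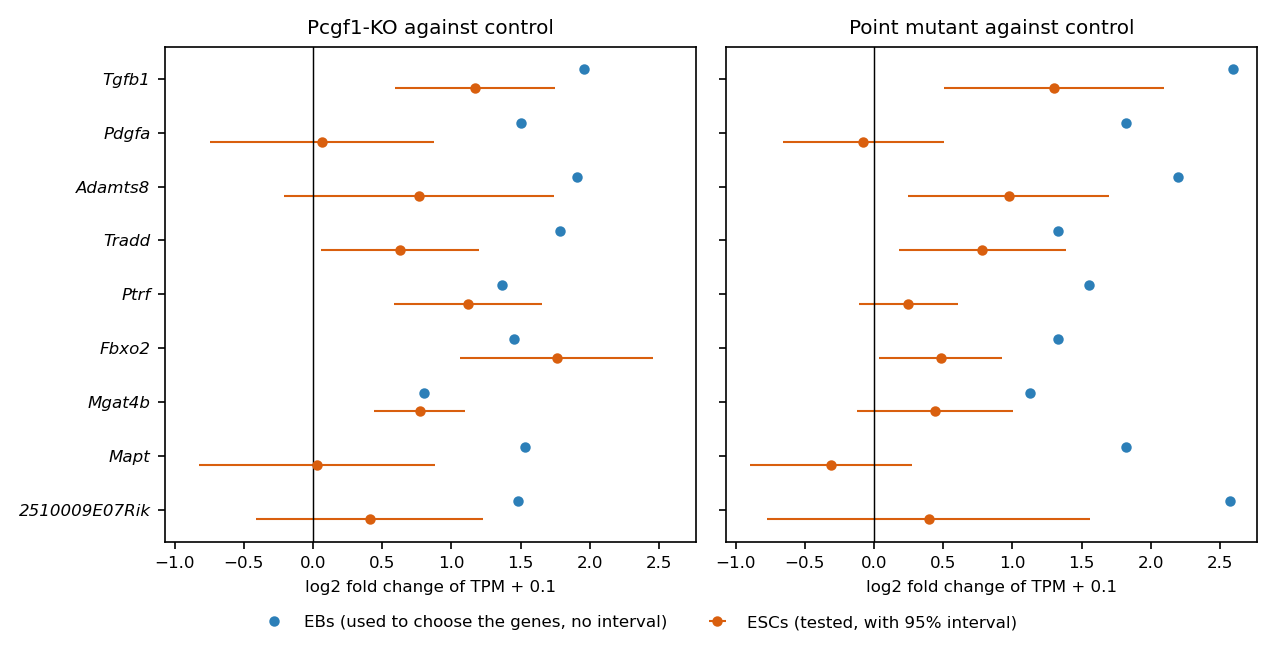
Log2 fold change of TPM + 0.1 for each of the 9 genes with 4-OHT against without it, in the *Pcgf1* line (left) and the point mutant line (right). Orange points are ESCs with 95% intervals and blue points are EBs, which chose the genes and carry no interval. In ESCs the points of *Fbxo2* (1.76) and *Mgat4b* (0.77) of the *Pcgf1* line passed the threshold, and those of *Pdgfa* and *Mapt* lie near 0 in both panels except for *Mapt* in the point mutant line at -0.31.

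In point mutant ESCs none of the 9 passed the adjusted threshold in limma, where 2.34% of 20279 genes rose and 0.197% fell. Of the 9, 4 had an unadjusted *p* under 0.05, as had 3388 of the 20279 genes and 29 of the 144 other Group 1 genes. All genes together shifted upwards by a median of 0.12 in this contrast, against which the median of the 9 was 0.44 and that of the 144 other Group 1 genes 0.30. With 2 libraries a group, 7 of the 9 were higher in both treated ESC libraries than in both controls, as were 32.5% of all genes, and 1, *Mapt*, was lower in both, as were 12.9%.

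*Tgfb1* had the largest difference, from 11.8 and 10.6 TPM to 25.5 and 30.05 TPM (log2 fold change 1.30, SE 0.34, adjusted *p* 0.10). *Adamts8* went from 4.38 and 3.10 TPM to 6.53 and 8.24 TPM (0.97, SE 0.31, adjusted *p* 0.159). *Tradd* went from 7.41 and 9.95 TPM to 13 and 16.9 TPM (0.78, SE 0.26, adjusted *p* 0.171). These 3 and *Fbxo2*, at 42.1 and 45.2 TPM against 62.4 and 59.6 TPM (0.48, SE 0.19, adjusted *p* 0.257), are the 4 with an unadjusted *p* under 0.05.

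The changes of the rest were smaller. *Mgat4b* measured 28 and 31.6 TPM against 39.2 and 41.6 TPM, and *Ptrf* 28.9 and 32.8 TPM against 38.5 and 34.8 TPM. The log2 fold change of *Ptrf* was 0.25, with a 95% interval from -0.11 to 0.60, while the value in *Pcgf1*-KO ESCs was 1.12. The difference between the 2 lines was not tested. *Pdgfa*, at 113 and 89.1 TPM against 120.2 and 75.1 TPM, overlapped (-0.08, 95% interval -0.66 to 0.50), and *Mapt* was at 12.4 and 12.3 TPM against 10.1 and 9.81 TPM (-0.31, 95% interval -0.89 to 0.27). The fibroblast markers were higher here in treated ESCs, with sums of 97.7 and 131 TPM against 52.5 and 61.5 TPM and 2 or 3 of the 15 at 0, and the primitive endoderm markers summed to 19.8 and 19.9 TPM against 3.55 and 4.08 TPM. The naive markers were lower, at 1650 and 1962 TPM against 2099 and 2395 TPM. The formative markers were higher, at 105 and 123 TPM against 49.4 and 95.7 TPM. The part of any of these cell states in the values of the 9 genes was not tested.

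Between ESCs and EBs, 7 of the 9 were lower in EBs by more than 1 on the log2 scale in the control cells of the *Pcgf1* line. These values share the EB libraries that chose the genes and are a description. *Mapt* had a difference of -4.55, *2510009E07Rik* -4.41, *Pdgfa* -3.30, *Ptrf* -2.83, *Adamts8* -2.10, *Tradd* -1.85 and *Tgfb1* -1.33, while *Mgat4b* was at -0.39 and *Fbxo2* at 0.24. In *Pcgf1*-KO cells the differences of *Mapt* (-3.05), *2510009E07Rik* (-3.34) and *Ptrf* (-2.58) were still large. Those of *Tradd* (-0.70) and *Tgfb1* (-0.55) were small.

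The same difference in control cells of the point mutant line was -3.46 for *Mapt*, -2.34 for *2510009E07Rik*, -2.32 for *Pdgfa*, -1.84 for *Ptrf* and -1.71 for *Adamts8*, and between -0.89 and -0.42 for the other 4. With both RING1 proteins mutated, *Mapt* was at -1.33, and the other 8 lay between -0.54 and 0.40. Whether the defect acted differently in EBs and ESCs was not tested, because the genes were chosen for their difference in EBs.

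**Figure D3:**
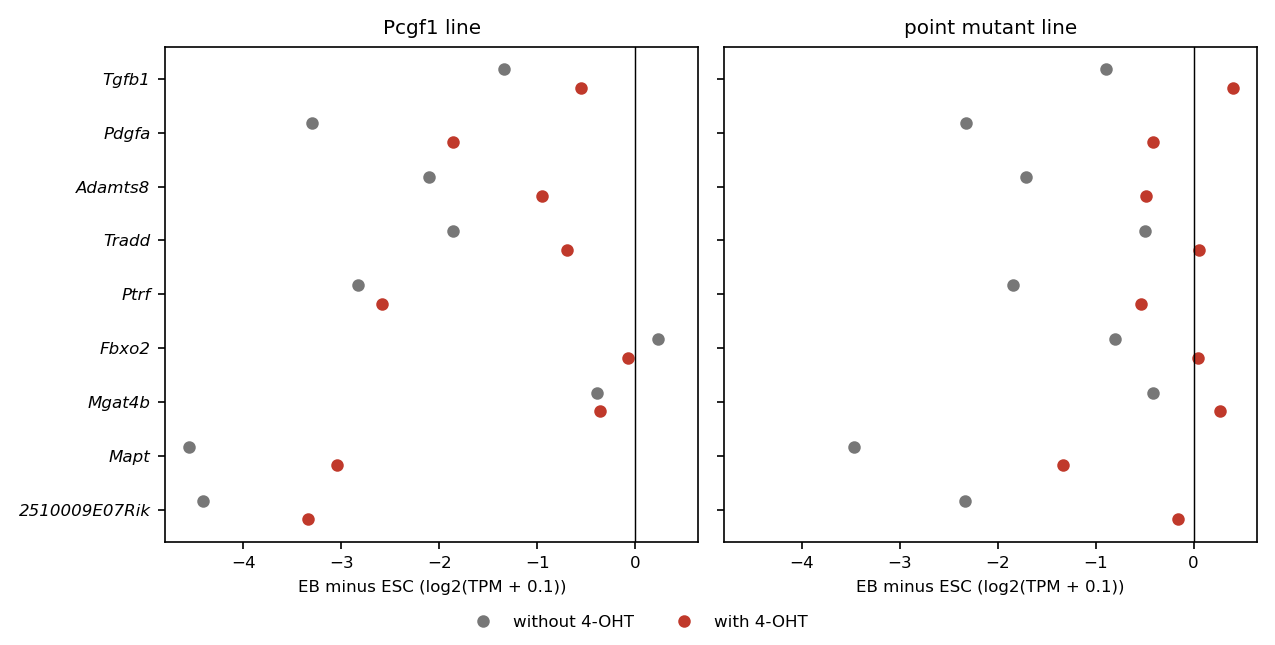
Difference of EBs from ESCs, as the difference of group means of log2(TPM + 0.1), for the 9 genes in the *Pcgf1* line (left) and the point mutant line (right). Grey points are cells without and red points cells with 4-OHT, and 0 marks no difference between EBs and ESCs. The grey points of *Mapt* (-4.55 and -3.46) are the farthest to the left, and in the point mutant line all red points except *Mapt* lie between -0.54 and 0.40.

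In the other 4 lines the labels of the libraries limit what can be compared. For 21 of these 32 libraries the file name gives another condition than the label does, and for 14 of them another stage. The 14 are the libraries whose *Fgf5* level went against the labelled stage. Groups were kept as labelled, and the values are given per library with *Klf4*, a marker of naive ESCs, and *Fgf5*. Results by label in these lines cannot be read as effects of the lost subunits.

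In the line with *Ring1a-/-* in all its cells, both libraries labelled mutant ESCs had little *Klf4* (9.90 and 7.38 TPM) and much *Fgf5* (28 and 27.5 TPM). Both labelled control EBs had much *Klf4* (665 and 709 TPM) and little *Fgf5* (0.540 and 0.791 TPM). Their file names call the former control EBs and the latter mutant ESCs. The labelled ESC groups thus set libraries with the markers of ESCs against libraries with those of EBs. Between them 7 of the 9 genes were lower past the threshold in libraries labelled mutant and none was higher, where 23.6% of 20344 genes were lower and 25.2% higher. Of the 144 other Group 1 genes fitted, 79 were lower and 18 higher. *Mapt* showed the widest gap, with 26.7 and 29.9 TPM in labelled control and 1.62 and 1.51 TPM in labelled mutant ESCs (log2 difference -4.09). *Pdgfa* measured 124 and 116 TPM against 25.4 and 23.5 TPM, *Ptrf* 28.9 and 32.4 TPM against 9.41 and 9.08 TPM, and *Tgfb1* 10.1 and 10.2 TPM against 4.39 and 3.70 TPM. *Fbxo2* (-0.23) and *Mgat4b* (0.08), the genes that changed least between ESCs and EBs of the *Pcgf1* line, were the 2 that did not pass.

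The groups labelled EBs in that line differ in the same way, with the markers of ESCs in the labelled controls, and 3 of the 9 were higher and 3 lower past the threshold, where 19.3% of all genes were higher and 14.1% lower. *Tgfb1* measured 20.4 and 22.3 TPM in labelled control and 33.8 and 38.0 TPM in labelled mutant EBs (log2 difference 0.75). *Fbxo2*, at 14.9 and 14 TPM against 25.3 and 22.8 TPM, and *Mgat4b*, at 39.4 and 43.8 TPM against 54.2 and 59.8 TPM, were the others that were higher, by 0.73 and 0.45. *Ptrf* was lower, with 60.4 and 62.5 TPM against 32.7 and 28.5 TPM (-1.01), as were *Mapt* (-0.86) and *Pdgfa* (-0.31). The count of 6 fell to 3 without replicate 1 of the labelled control EBs or without replicate 2 of the labelled mutant EBs. Fibroblast markers summed to 564 and 591 TPM in the labelled control EBs against 90.4 and 93.8 TPM in the labelled mutant EBs, and to 218 and 225 TPM against 41.0 and 43.1 TPM in the labelled control and mutant ESCs. Their part in the differences was not tested. No comparison of this line by label could be made without the libraries that go against it, because they are all those of a group.

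The 2 groups of that line with *Fgf5* above 1 TPM were the labelled mutant ESCs and the labelled mutant EBs. All 9 genes were higher past the threshold in the labelled mutant EBs, with a median log2 difference of 1.96 and a range from 0.95 (*Tradd*) to 4.47 (*Adamts8*), where 36.6% of all genes were higher. Of the 144 other Group 1 genes fitted, 90 were higher past the threshold and 13 lower, with a median of 0.99. By file name these groups are control and mutant EBs, which the labels do not say. *Klf4* also differed between them, at 117 and 118 TPM in the labelled mutant EBs. In the labelled mutant ESCs primitive endoderm markers summed to 6.31 and 7.11 TPM, against 132 and 133 TPM in these EBs. Naive markers summed to 336 and 348 against 1217 and 1223 TPM, and fibroblast markers to 41.0 and 43.1 against 90.4 and 93.8 TPM. Formative markers were lower, at 1204 and 1238 against 477 and 484 TPM. The part of any of these in the differences of the 9 genes was not tested.

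*Fgf5* was under 1 TPM in the labelled control ESCs and labelled control EBs of that line, by file name control and mutant ESCs. Between them 6 of the 9 genes were higher past the threshold in the labelled control EBs and 1 was lower. Over all genes 28.6% were higher and 14.6% lower. The median log2 difference was 0.59 over the 9 and 0.11 over the 144 other Group 1 genes. Fibroblast sums also differed between them, as given above, and their part was not tested. Set side by side over the 4 groups of that line, the members split by level. *Tgfb1* was highest in labelled mutant EBs (33.8 and 38.0 TPM), then labelled control EBs, labelled control ESCs and labelled mutant ESCs. *Ptrf* was highest in labelled control EBs (60.4 and 62.5 TPM), and its labelled control ESCs (28.9 and 32.4 TPM) overlapped with its labelled mutant EBs (32.7 and 28.5 TPM). *Adamts8* measured 3.54 and 3.70 TPM in labelled control EBs and 3.93 and 4.11 TPM in labelled mutant EBs, and at most 0.763 TPM in both labelled ESC groups. *2510009E07Rik* showed the same order, with 1.94 to 3.71 TPM over the labelled EBs and at most 1.36 TPM over the labelled ESCs.

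In the *Pcgf2/4*, *Pcgf3/5* and *Pcgf6* lines none of the 9 passed the threshold at either labelled stage in limma, and none had an unadjusted *p* under 0.05. Calls over all genes were 0% in the *Pcgf2/4* and *Pcgf6* lines, and 0.0401% at the labelled ESC stage and 0.0301% at the labelled EB stage in the *Pcgf3/5* line. The intervals were wide. That of *Mapt* for labelled *Pcgf2/4* mutant against control ESCs ran from -3.5 to 3.73 on the log2 scale, and that of *Fbxo2*, the narrowest there, from -0.67 to 0.37.

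The levels of the genes followed the replicate number in 2 of these lines. By file name, every library numbered 1 in these lines is of ESCs and every library numbered 2 of EBs, whatever its label. In the *Pcgf2/4* line the 4 libraries numbered 1, from all 4 labelled groups, had *Klf4* at 120.4 to 168 TPM and *Fgf5* at no more than 0.319 TPM, and the 4 numbered 2 had *Klf4* at 8.54 to 11.1 TPM and *Fgf5* at 33.9 to 46.3 TPM. *Mapt* lay between 38.7 and 45.0 TPM in the former and between 4.98 and 7.09 TPM in the latter, and *Pdgfa* between 240.1 and 287 TPM against 80.1 and 107 TPM. *Fbxo2* and *Tradd* overlapped, and the other members were higher in every library numbered 1. The share of all genes that did so was not computed in either line. In the *Pcgf6* line *Klf4* lay at 142 to 200.2 TPM in libraries numbered 1 and at 3.25 to 16.1 TPM in those numbered 2. *Tgfb1* and *Tradd* overlapped in that line, and the other members were apart. *Tgfb1* there spread from 3.30 to 19.5 TPM over the libraries numbered 2. It measured 3.30 and 4.39 TPM under the ESC labels and 16.3 and 19.5 TPM under the EB labels. Their file names call the former control EBs and the latter mutant EBs. *Ptrf* (6.66 and 6.75 against 17.3 and 24.2 TPM), *Mapt*, *Pdgfa*, *Adamts8* and *2510009E07Rik* were also higher in both of the latter. *Fbxo2*, *Mgat4b* and *Tradd* were lower in both. *Col1a1*, a fibroblast marker, also differed, at 1.19 and 1.18 against 36.1 and 92.2 TPM. Its part, and that of the lost subunit, was not tested.

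In the *Pcgf3/5* line 1 library of each labelled mutant group stood apart. Replicate 2 of the labelled mutant ESCs had *Klf4* at 12.1 and *Fgf5* at 7.53 TPM, and its *Mapt*, at 3.59 TPM, was unlike the 35.4, 34.3 and 32.2 TPM of the other labelled ESCs. Replicate 2 of the labelled mutant EBs had *Klf4* at 183 TPM and *Fgf5* listed at 0, and its *Mapt*, at 35.6 TPM, was unlike the 3.74, 2.37 and 2.67 TPM of the other labelled EBs. *Pdgfa* followed the same order, at 24.1 TPM against 137 to 149 TPM, and at 144 TPM against 23.3 to 25.5 TPM.

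Where libraries that went against the labelled stage were left out, small differences remained. In the *Pcgf3/5* line, with 2 control libraries and 1 labelled mutant library at each stage, none of the 9 passed in a limma fit that takes the lone library to vary like the others, and log2 differences ran from -0.19 to 0.75 in ESCs and from -0.50 to 0.19 in EBs. In the *Pcgf2/4* line this left 1 library a group and no test, with differences from -0.57 to 0.44 in ESCs and -0.23 to 0.31 in EBs. In the *Pcgf6* line they ran from -0.32 to 0.35 in ESCs and from -0.16 to 0.95 in EBs, the last value being that of *Adamts8* at 0.274 against 0.623 TPM. *Tgfb1* was higher in the labelled mutant library in 5 of these 6 comparisons and *Mgat4b* in 1 of the 6. By file name, each comparison in the *Pcgf2/4* and *Pcgf6* lines sets libraries of the same state against each other, control ESCs or mutant EBs. In the *Pcgf3/5* line the labelled control groups hold both states by file name. These comparisons therefore cannot show an effect of a lost subunit, and no direction here can be tied to one.

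**Figure D4:**
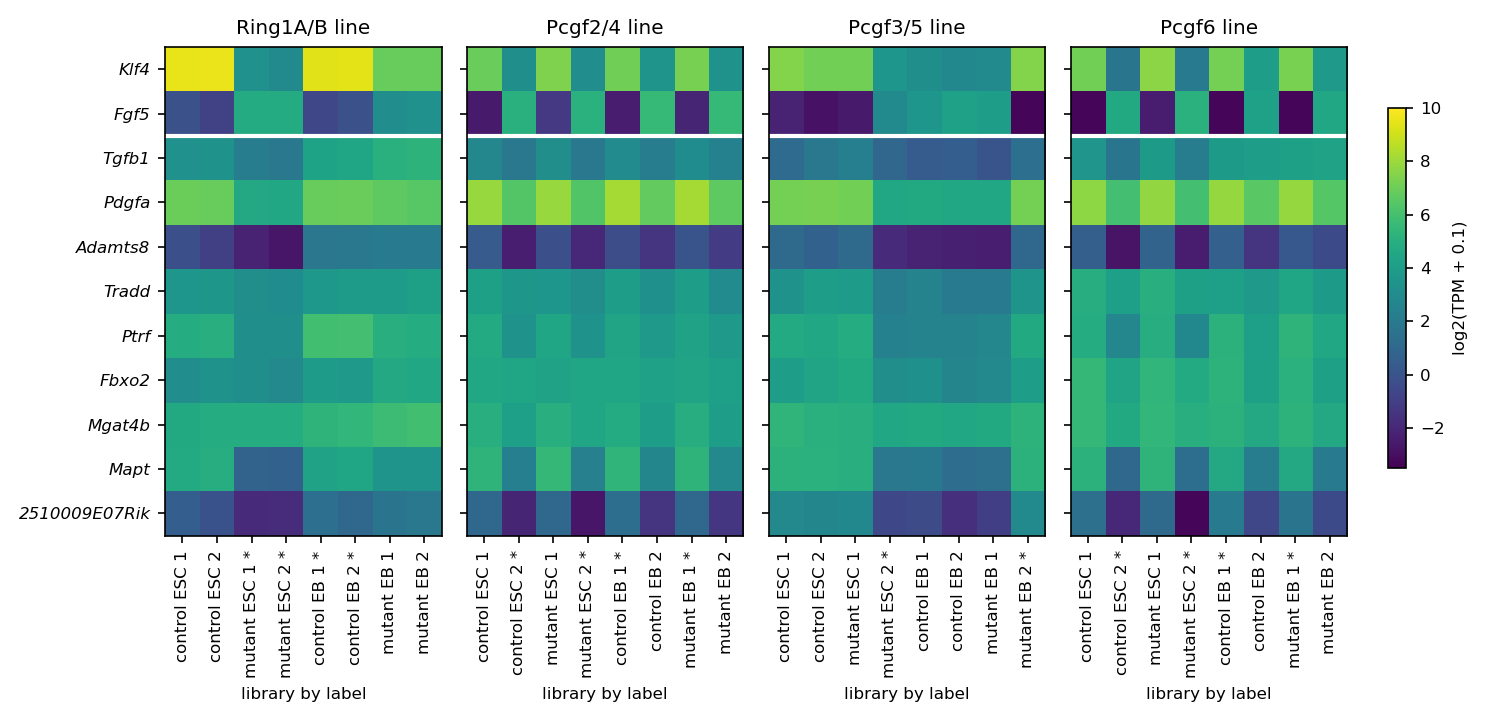
Level, as log2(TPM + 0.1) on the colour scale, of *Klf4*, *Fgf5* and the 9 genes (rows) in each library (columns, by label and replicate number) of the 4 other lines. A star marks the 14 libraries whose *Fgf5* level went against the labelled stage. *Mapt*, *Pdgfa* and *2510009E07Rik* are bright where *Klf4* is bright and dark where *Fgf5* is bright in the last 3 lines.

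Over all 59 libraries the 9 genes moved together to unlike extents. Pearson's r of log2(TPM + 0.1) was highest for *Mapt* with *Pdgfa* (0.87), *2510009E07Rik* (0.82) and *Ptrf* (0.80), and lowest for *Fbxo2* with *Mapt* (0.18) and *Ptrf* (0.29). With *Klf4* it ran from 0.21 for *Fbxo2* to 0.89 for *Ptrf*. These values describe libraries that share lines and stages. Among 13715 other genes with a mean of at least 1 TPM, those with the highest r with the mean standardised level of the 9 were *Oplah* (0.91), *Htra1* (0.90), *Mras* (0.89), *Cdx1* (0.89) and *Zc3h12a* (0.89), of which *Mras* is a Group 1 gene. *Cdx1*, a caudal homeobox gene, lay between 0.648 and 0.952 TPM in control EBs of the *Pcgf1* line and between 1.09 and 5.16 TPM in *Pcgf1*-KO EBs, and went from 0.260 and 1.81 TPM to 22.8 and 27.8 TPM in point mutant EBs.

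Of the 4 Group 1 neighbours within 10 kb, none passed the threshold between treated and control cells of the *Pcgf1* or point mutant line. Differences between neighbours were not tested. Between EBs and ESCs of the *Pcgf1* line, *Fbxl8* was lower past it in control (-2.79) and *Pcgf1*-KO cells (-1.35), and *Hsf4* in control cells (-1.40). Over all genes 13.4% were lower there in control and 10.2% in *Pcgf1*-KO cells. *Fbxl8*, which starts 39 bp from *Tradd* and is also in Group 1, had a log2 difference of 1.71 (SE 0.45, adjusted *p* 0.0582) in *Pcgf1*-KO EBs and 1.02 (SE 0.58, adjusted *p* 0.381) in point mutant EBs. *Hsf4*, a Group 1 heat shock factor gene within 10 kb of *Tradd*, had 1.11 (adjusted *p* 0.275) and 2.22 (adjusted *p* 0.174). *Fbxo44*, which starts 139 bp from *Fbxo2* and encodes a related F-box protein, had -0.07 (95% interval -0.51 to 0.38) and 0.32 (95% interval -0.37 to 1.02). In *Pcgf1*-KO ESCs, where *Fbxo2* rose by 1.76, *Fbxo44* was at -0.12 (95% interval -0.59 to 0.36), so the interval of the neighbour lies wholly below the value of *Fbxo2*. *B9d2*, a Group 1 gene that ends 443 bp before *Tgfb1* on the same strand, had log2 differences between -0.11 and 0.29 in the 4 contrasts of these lines, none past the threshold.

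Partners of the 9 genes, taken from lists of their pathways without the genes themselves, changed in a few cases. Among 5 other PDGF ligands and receptors, 2 rose in *Pcgf1*-KO EBs and 1 in point mutant EBs, and none passed in ESCs. *Pdgfra*, the receptor that PDGF-A binds and a primitive endoderm marker, lay between 0.0861 and 0.474 TPM in control EBs and between 0.71 and 2.21 TPM in *Pcgf1*-KO EBs (log2 fold change 2.11, SE 0.39, adjusted *p* 0.00740). In point mutant EBs it went from 0.966 and 1.28 TPM to 4.44 and 4.62 TPM (1.93, SE 0.35, adjusted *p* 0.0291), so ligand and receptor transcripts were both higher with each defect. *Pdgfc*, another ligand of that receptor, lay between 3.36 and 10.2 TPM in control EBs and rose to between 15.9 and 35.4 TPM in *Pcgf1*-KO EBs (1.72, SE 0.29, adjusted *p* 0.00470) and had -0.34 (adjusted *p* 0.570) in point mutant EBs. The difference between the lines was not tested.

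Of 21 other TGF-beta genes (ligands, latency proteins, receptors, SMADs and targets), none rose in any of the 4 contrasts. *Tgfbi*, a gene named for its induction by TGF-beta, lay between 15.8 and 18.9 TPM in control ESCs and fell to between 7.23 and 9.67 TPM in *Pcgf1*-KO ESCs (-1.01, SE 0.21, adjusted *p* 0.0360), while *Tgfb1* itself had 1.17. *Skil*, a SMAD target and corepressor, fell in point mutant EBs from 111 and 122 TPM to 37.9 and 59.1 TPM (-1.30, SE 0.21, adjusted *p* 0.0225).

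Of 12 other genes of TNF receptor 1 signalling, *Tnfrsf1a*, the receptor that TRADD binds, rose in both point mutant contrasts, from 6.61 and 8.93 TPM to 17 and 18 TPM in ESCs (1.18, SE 0.22, adjusted *p* 0.0407) and from 4.51 and 4.57 TPM to 13.7 and 14.8 TPM in EBs (1.63, SE 0.22, adjusted *p* 0.0138). In *Pcgf1*-KO EBs its log2 difference was -0.76 (adjusted *p* 0.289). Among 8 other caveola genes, *Ehd2* rose in point mutant ESCs and EBs (2.19 and 2.01) and *Prkcdbp*, another cavin gene, in point mutant EBs (1.67), and none passed in the *Pcgf1* line, in which *Prkcdbp* was at -1.70 in EBs (adjusted *p* 0.212). The fibroblast marker sums given above were higher in the same point mutant groups.

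Of 18 other ADAMTS proteases, *Adamts9* rose in *Pcgf1*-KO EBs (1.36, adjusted *p* 0.0268) and *Adamts20* in point mutant EBs (2.37, adjusted *p* 0.0397), each in 1 contrast. Of 10 other microtubule-associated genes, *Map1b*, a neuronal gene, fell in point mutant EBs (-1.47, adjusted *p* 0.0343), the opposite direction to *Mapt*. None of 9 other genes of N-glycan branching passed in the 4 contrasts, although all 9 were above 0 in point mutant EBs with a median of 0.47, beside a median of 0.10 over all genes. None of 7 other sugar-binding F-box and SCF core genes passed.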

How the data were processed

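RNA-seq was measured in 59 libraries. Per the study's methods and processing notes, the authors aligned single-end reads with STAR 2.5.2b to mm9 and counted them per gene, and DESeq2 was their test on counts. The deposited values are TPM, 1 file a library, each summing to 1000000. How counts became TPM is not given in the sources used here, and depth is unknown, so no counting interval was computed. Between 6039 and 9139 genes were at 0 in a library, and 0 of 1711 library pairs were identical.

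Groups were taken from the GEO labels, also where file names differ from them. For each line, 1 limma model (version 3.58.1, R 4.3.3, empirical Bayes with trend) was fitted over its 4 groups on log2(TPM + 0.1), for genes with any TPM above 0 in that line. Benjamini-Hochberg adjusted *p* values cover all genes fitted, with a threshold of 0.05. The script was tested on simulated data. Tables and figures used Python 3.11.15, numpy 2.4.6, pandas 2.3.3 and matplotlib 3.10.9.

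The named genes are the 9, genes nearest to the rule's threshold, stage and fibroblast markers, targeted genes, listed pathway genes past the threshold in the *Pcgf1* or point mutant line, Group 1 genes within 10 kb, and the 5 genes most like the 9 in pattern. *Sqstm1* was named after its position was seen. The 9 genes and all lists were chosen with earlier results of these data known. In the *Pcgf1* line, replicate numbers from the titles pair the libraries: deviations of same-numbered libraries from their group means correlated at 0.414 to 0.626 in the 4 ESC pairs. Alternatives were a pseudocount of 1, a mean of at least 1 TPM, median-of-ratios and quantile scaling, a replicate block, only the groups compared, each library left out in turn and, chosen after seeing the data, omission of *Pcgf3/5* libraries whose *Fgf5* level goes against their labelled stage.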

Additional observations from a re-analysis of the deposited data

Results flagged for a closer look

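*Adamts8* in replicate 1 of the *Pcgf1*-KO ESCs, at 0.536 TPM, stood far below the other 4 libraries of its group (1.96 to 3.18 TPM). It was the 1 such library in 36 groups of 4 to 10 libraries examined, and chance alone picks out about 1 group in 20.

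In 9 cases every library labelled mutant of 1 line lay below its labelled controls, while every mutant library of another line lay above its own. The difference between the lines was not tested in any of them. In the ESCs of the line that lacks *Ring1a*, this held for *2510009E07Rik* (log2 difference -2.04), *Adamts8* (-1.83) and *Tradd* (-0.49), which were higher in point mutant ESCs, and for *Ptrf* (-1.72) and *Tgfb1* (-1.31), which were higher in both *Pcgf1*-KO and point mutant ESCs. *Ptrf* was also lower in the labelled mutant EBs of that line (-1.01) and higher in those of the *Pcgf3/5* line. In the labelled *Pcgf2/4* mutant ESCs *Tradd* (-0.51) was lower, against higher levels in point mutant ESCs, and so was *Fbxo2* (-0.15), against higher levels with both defects. *Mgat4b* was lower in the labelled *Pcgf3/5* mutant ESCs (-0.39) and higher with both defects. All 9 involve a line in which libraries go against their labelled stage. Over all genes, 32.8% lay wholly lower in the labelled mutant ESCs of the line that lacks *Ring1a* and 27.7% in its labelled mutant EBs. The share was 7.46% in labelled *Pcgf2/4* and 14.4% in labelled *Pcgf3/5* mutant ESCs. Wholly higher were 32.5% in point mutant ESCs, 2.1% in *Pcgf1*-KO ESCs and 12.9% in labelled *Pcgf3/5* mutant EBs. The share of genes that did both was not computed.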

How the results depend on the processing

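In *Pcgf1*-KO ESCs the count of 2 genes past the threshold became 4 with a pseudocount of 1, with a mean of at least 1 TPM, with median-of-ratios scaling and with the replicate block, and 0 with only the groups compared. It ran from 0 to 3 with 1 library left out. The block gave 1 of 9 in point mutant ESCs (*Tradd*, adjusted *p* 0.0467), where the numbers of 2 pairs do not establish pairing, and leaving out a library gave 0 to 0. In the line without *Ring1a*, leaving out a library gave 3 to 5 in labelled EBs and 6 to 7 in labelled ESCs. Over the alternatives the adjusted *p* in *Pcgf1*-KO ESCs ran from 0.00199 to 0.107 for *Fbxo2*, 0.00164 to 0.104 for *Mgat4b*, 0.00112 to 0.167 for *Ptrf* and 0.0194 to 0.210 for *Tgfb1*. Over all genes the count in *Pcgf1*-KO ESCs was 132, and 233 with a pseudocount of 1, 208 with median-of-ratios scaling, 207 with quantile scaling, 1094 with the block and 34 to 184 with a library left out, and in point mutant ESCs it was 515, 207 with quantile scaling and 1326 with the block. Signs reversed for genes near 0: *Mapt* in *Pcgf1*-KO ESCs (-0.12 with the block, -0.069 to 0.12 with a library left out), *Pdgfa* there (-0.053 with the block, -0.077 to 0.20), *Pdgfa* in point mutant ESCs (-0.42 to 0.26 with a library left out), *2510009E07Rik* in point mutant ESCs (-0.14 with quantile scaling) and *Mgat4b* in labelled ESCs without *Ring1a* (-0.0065 to 0.16). Of 405 alternatives of single genes, 355 kept direction and side of the threshold, 25 lost and 12 gained the threshold, and 13 reversed; the cause was not tested. Depth cannot be judged from TPM alone.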
